A study of Mus musculus with 3 samples.

Results

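The 57 genes described here encode enzymes of glycolysis and gluconeogenesis, lactate formation, the pyruvate dehydrogenase complex, the tricarboxylic acid (TCA) cycle, NADPH supply and the pentose phosphate pathway. They were picked by enzyme name from 24346 gene symbols, with earlier results of these data known, and all 57 had values. The tissue was the distal colon of wild-type (WT) mice of 8 weeks, with JAX given as the strain and steady state as the treatment. The labels give 3 libraries, replicates 1 to 3, which form 1 group with no contrast between conditions. They do not say whether the libraries came from separate mice. The tissue was rinsed, frozen and extracted whole, and polyadenylated RNA was sequenced. In such bulk tissue, fewer cells of a type and less RNA per cell cannot be told apart. The questions are therefore how strongly each enzyme gene was read out, which isozyme led at each step, and which splice form of Pkm, the main pyruvate kinase gene, prevailed.

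Glycolysis splits glucose into pyruvate in the cytosol and yields ATP and NADH. Pyruvate is then reduced to lactate by lactate dehydrogenase, or enters mitochondria, where the pyruvate dehydrogenase complex turns it into acetyl-CoA for the TCA cycle. Many steps have several isozymes, encoded by separate genes, that differ in tissue range and regulation. Colonocytes are known for burning butyrate, a product of gut bacteria, as a main mitochondrial fuel, while the pentose phosphate pathway supplies NADPH and ribose to growing cells.

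All levels are FPKM, the fragments of a transcript scaled to its length and to all mapped fragments of the library, summed over the isoforms of a gene, so genes of different length can be set side by side. Depth, worked out from the deposited confidence bounds, was 3.78e+06 and 3.79e+06 mapped fragments in replicates 1 and 2 and 1.24e+06 in replicate 3. Across 8771 genes with 1 isoform and at least 1 FPKM, the variance between libraries was 0.677 times the sampling variance in the median, against 0.693 from sampling noise alone. A chi-square test with Benjamini-Hochberg adjustment called 7 of these genes at an adjusted p of 0.05, or 0.0798%. In the median gene the 3 libraries thus differed by less than the sampling noise. All 3 were therefore treated as 1 sample. Each ± below is the SD over the 3 libraries. It is read as an error of measurement and cannot be taken as spread between mice, and no p-value is given between genes. The tissue label was checked against marker genes. All 8 colon epithelium markers and all 8 smooth muscle markers reached 1 FPKM, with summed levels of 3972 to 4032 FPKM and 3158 to 3280 FPKM. All 8 neuron markers (56.2 to 60.1 FPKM summed), all 6 enteroendocrine markers (419 to 454 FPKM) and 5 of 8 myeloid markers (143 to 148 FPKM, with S100a8 and S100a9 listed at 0) did so as well. Liver markers were present too, 8 of 8 at 281 to 303 FPKM summed, with albumin (Alb) at 129 FPKM. Of the small intestine markers 3 of 7 reached 1 FPKM (51.8 to 62.3 FPKM summed, Gata4 at 0), and of the red blood cell markers 2 of the 4 with values (68.2 to 74.9 FPKM). Skeletal muscle gave 2 of 10 markers (12.2 to 18.9 FPKM), with Myh1, Myh4, Tnni2 and Myog at 0, and adipose tissue 1 of 6 (20.2 to 34.4 FPKM, Lep at 0). No kidney marker (0.146 to 0.325 FPKM, with Umod, Slc12a1 and Slc22a6 at 0) and no testis marker reached 1 FPKM, and Prm1, Prm2, Tnp1, Odf1 and Akap4 of testis were all at 0. The part of these cell types in the levels of the metabolic genes was not tested.

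Nearly the whole set was read out in the distal colon. At least 1 FPKM in every library was reached by 52 of the 57 genes, or 91.2%, while 48.5% of all symbols did so. A mean of 10 FPKM or more was held by 41 genes (71.9%, against 23.3% of all symbols) and of 100 FPKM or more by 15 genes (26.3%, against 2.59%). The median of the 57 means was 40.3 FPKM, with 1.25 FPKM over all symbols. Restricted to genes at 1 FPKM or more in every library, the medians were 51.0 FPKM for the 52 and 9.43 FPKM for all 11812 such symbols. Together the 57 genes held 1.26%, 1.26% and 1.25% of the summed FPKM in replicates 1, 2 and 3. None was listed at 0 in all libraries, and 5 had a mean under 1 FPKM: the hexokinases Hk3 and Hkdc1, Pfkfb1, Pgam2 and G6pc. The highest mean was that of Gapdh, and the order among the 5 lowest is not resolved at this depth. Further genes of these pathways, outside the 57, reached a mean of 1 FPKM in 12 of 18, 6 of 8 and 14 of 18 cases. Of them, 4, 2 and 1 were at 0, so the shares above depend in part on which genes were picked. Of the 57 genes, 19 matched transcripts of other genes, pseudogenes and overlapping neighbours included, over 100 bases or longer with an identity of 97% or higher. Their levels are uncertain to that extent, and each is named where it is described.

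**Figure D1:**
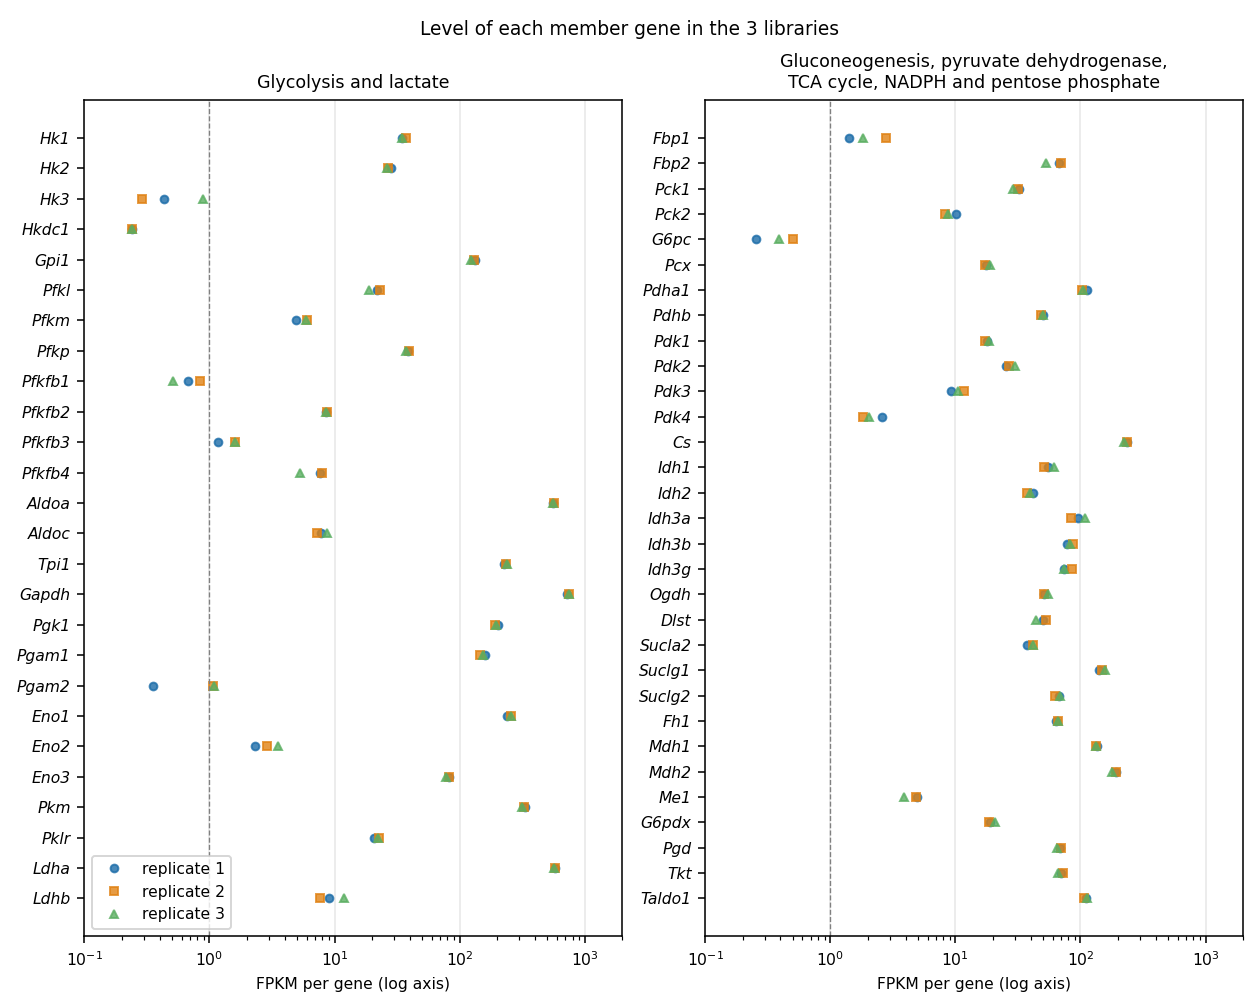
Level of each of the 57 genes in each of the 3 libraries, in FPKM on a log axis, with 1 point per library and a dashed line at 1 FPKM. The 3 points lie close together for abundant genes such as Ldha and Gapdh and spread out for genes near or under 1 FPKM, such as Pgam2 and Hk3.

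Glucose is trapped in the cell by hexokinases, and 2 of the 4 genes carried this step. Hk1, the broadly expressed hexokinase, stood at 34.6, 36.9 and 34.4 FPKM in replicates 1, 2 and 3 (chromosome 10, 62268855 to 62379908, GRCm38 like all positions here). Hk2, the insulin-responsive form best known from muscle and tumours, stood at 28.1, 26.7 and 26.2 FPKM. Hk1 was thus the higher in every library, by a ratio of 1.31 ± 0.0751, although the 95% bounds of the 2 genes were apart in only 2 of the 3. Here and below, bounds of a gene with several isoforms were worked out from the deposited bounds of its isoforms. Of the summed hexokinase FPKM, Hk1 held 56.0% ± 1.47 and Hk2 42.8% ± 1.39. Hk3, a hexokinase of white blood cells, averaged 0.535 ± 0.310 FPKM on about 5.31 fragments over the 3 libraries. Hkdc1, which lies on chromosome 10 close to Hk1 (62383137 to 62422457), averaged 0.240 ± 0.00192 FPKM on about 7.0 fragments. The bounds of Hk3 and Hkdc1 overlapped in every library, so their order is not resolved at this depth. The Hk1 transcript shares 157 bases with the antisense-named gene Hk1os (0.896 FPKM), which makes its level uncertain by that stretch. Gpi1, the single isomerase that makes fructose 6-phosphate, followed at 133, 131 and 124 FPKM and has a copy, Gm1840, that matches it over 1046 bases.

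Phosphofructokinase 1, the main control point of glycolysis, was led by Pfkp, the platelet-type subunit. Pfkp stood at 38.9, 39.5 and 37.6 FPKM, Pfkl, the liver-type subunit, at 21.7, 23.2 and 18.8 FPKM, and Pfkm, the muscle-type subunit, at 4.96, 5.98 and 5.92 FPKM. The bounds of neighbours in this order were apart in every library. The shares of the step were 59.1% ± 1.43 for Pfkp, 32.3% ± 1.92 for Pfkl and 8.59% ± 0.965 for Pfkm. Pfkp overlaps Pitrm1 (7.91 FPKM) over 748 bases, or 18.05% of its transcript, and is uncertain to that degree. The bifunctional enzymes that make and break fructose 2,6-bisphosphate, the strongest activator of phosphofructokinase 1, were all low. Pfkfb2, the form known from heart, stood at 8.53, 8.68 and 8.56 FPKM, and Pfkfb4, the form known from testis, at 7.61, 7.93 and 5.28 FPKM. Their bounds overlapped in all libraries, and the leading share of Pfkfb2 (48.9% ± 4.22) passed to Pfkfb4 when only the highest isoform of each gene was counted, which gave Pfkfb2 42.1%. Pfkfb2 also matches 2 other annotated genes, the overlapping Yod1 among them, over up to 1197 bases. Pfkfb3, the inducible form, averaged 1.46 ± 0.244 FPKM and Pfkfb1, the liver form, 0.674 ± 0.164 FPKM, with overlapping bounds in every library.

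The enzymes that run the pathway backwards were uneven. Fbp2, the fructose-1,6-bisphosphatase known from skeletal muscle, stood at 67.1, 70.2 and 53.3 FPKM (chromosome 13, 62836885 to 62858370). Fbp1, the liver and kidney form encoded on the same chromosome (62864753 to 62888282), stood at 1.41, 2.81 and 1.83 FPKM. Fbp2 held 96.9% ± 0.926 of the pair and exceeded Fbp1 by a ratio of 33.9 ± 12.1, with bounds apart in every library. Fbp2 rested on about 652 fragments and Fbp1 on about 24.0, which limits the precision of the ratio. Of the skeletal muscle markers, Ckm stood at 9.40 FPKM, Acta1 at 4.67 FPKM and the remaining 8 under 1 FPKM. The fast myosin heavy chains Myh1 and Myh4 were listed at 0. The 10 markers summed to 12.2 to 18.9 FPKM. Smooth muscle markers summed to 3158 to 3280 FPKM and colon epithelium markers to 3972 to 4032 FPKM. Which cells held the Fbp2 RNA was not tested.

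Pck1, the cytosolic phosphoenolpyruvate carboxykinase, stood at 32.3, 31.7 and 28.9 FPKM, and the mitochondrial enzyme gene Pck2 at 10.2, 8.33 and 8.70 FPKM. Pck1 held 77.3% ± 1.65 of the step in these libraries, 3.43 ± 0.333 times Pck2. Pcx, the pyruvate carboxylase that makes oxaloacetate in mitochondria, averaged 17.8 ± 0.845 FPKM. G6pc, the catalytic subunit that releases free glucose in liver, kidney and small intestine, averaged 0.383 ± 0.127 FPKM on about 6.99 fragments. The last step towards glucose was thus the lowest of the 6 gluconeogenic genes by mean, and the broadly expressed relative G6pc3, not among the 57, stood at 25.2 ± 3.48 FPKM.

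Aldoa, the aldolase that cuts fructose 1,6-bisphosphate, stood at 556, 573 and 554 FPKM (chromosome 7, 126795234 to 126800447), and Aldoc, the brain-type gene, at 7.78, 7.25 and 8.63 FPKM. Aldoa held 98.6% ± 0.142 of the pair. The ratio of Aldoa over Aldoc was 71.5 ± 7.37, with bounds apart in every library.

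Triosephosphate isomerase, Tpi1, stood at 228, 237 and 237 FPKM, and the dehydrogenase Gapdh at 720, 753 and 745 FPKM (chromosome 6, 125161852 to 125166467). Pgk1, the X-linked phosphoglycerate kinase that makes the first ATP, stood at 201, 193 and 195 FPKM. Gapdh was 20.95 ± 0.638 times Hk1 and ranked 97th of all symbols. Its level is uncertain, because 49 other genes, 46 of them pseudogenes, match its transcript, 1 of them over 94.3% of its length. Pgk1 (3 pseudogenes, up to 68.8% of the transcript) and Tpi1 (1 pseudogene, 19.3%) are uncertain in the same way.

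Phosphoglycerate mutase was almost wholly Pgam1, the brain-type and general form, at 159, 144 and 153 FPKM. Pgam2, the muscle form, stood at 0.356, 1.07 and 1.08 FPKM on about 5.0 fragments in all, under 1 FPKM in replicate 1 alone. Pgam1 held 99.4% ± 0.287 of the pair and has 1 pseudogene over 43.1% of its transcript. Enolase was shared between 2 genes instead. Eno1, the general alpha subunit, stood at 241, 255 and 258 FPKM, Eno3, the muscle beta subunit, at 82.9, 81.6 and 77.5 FPKM, and Eno2, the neuronal gamma subunit, at 2.31, 2.91 and 3.53 FPKM. Their shares were 75.03% ± 1.09, 24.1% ± 1.25 and 0.869% ± 0.169, with bounds apart between neighbours in every library. The near-identical copy Eno1b, which matches Eno1 over 85.6% of its transcript, was itself listed at 30.7 ± 1.99 FPKM, so the division between Eno1 and Eno1b is uncertain. Of the muscle isozymes at these steps, Eno3 was thus abundant and Pgam2 near the detection limit. Beside them stood smooth muscle markers at 3158 to 3280 FPKM summed, skeletal muscle markers at 12.2 to 18.9 FPKM and neuron markers at 56.2 to 60.1 FPKM.

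**Figure D2:**
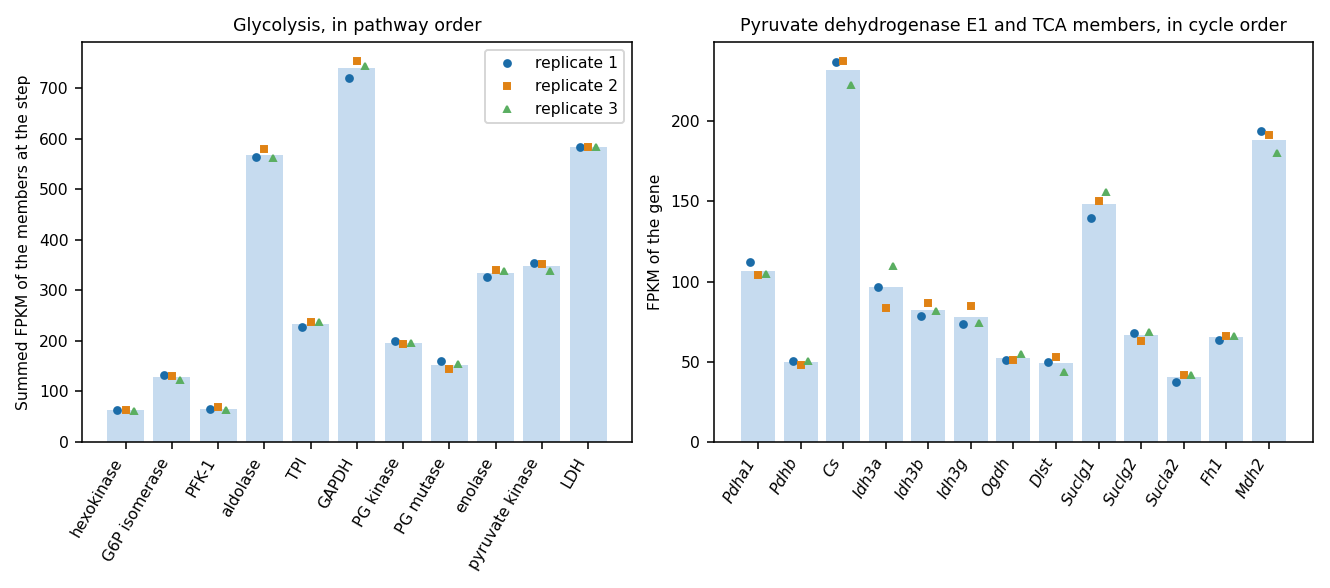
Bars give mean levels in FPKM and points the 3 libraries, on the left the summed genes of each glycolytic step in pathway order and on the right single genes of pyruvate dehydrogenase E1 and the TCA cycle. Hexokinase (63.1 FPKM) and phosphofructokinase 1 (65.5 FPKM) are the lowest glycolytic steps and glyceraldehyde-3-phosphate dehydrogenase (740 FPKM) the highest, while citrate synthase (232 FPKM) leads on the right.

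Summed over isozymes, the plot of levels in pathway order showed 2 low points. Hexokinase averaged 63.1 ± 1.26 FPKM and phosphofructokinase 1 averaged 65.5 ± 3.20 FPKM, a difference of about the size of their SDs. The isomerase between them averaged 129 ± 4.83 FPKM. From aldolase (569 ± 9.41 FPKM) to lactate dehydrogenase (584 ± 0.559 FPKM), the lowest step was phosphoglycerate mutase at 153 ± 7.10 FPKM.

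Pyruvate kinase, which makes pyruvate and ATP from phosphoenolpyruvate, came mainly from Pkm. Pkm stood at 333, 329 and 317 FPKM (chromosome 9, 59656368 to 59679375) and Pklr, the liver and red blood cell gene, at 20.6, 22.6 and 22.2 FPKM (chromosome 3, 89136142 to 89146594). Pkm held 93.7% ± 0.381 of the pair, 15.0 ± 1.00 times Pklr. Pkm makes 2 forms by using 1 of 2 neighbouring exons, the constitutively active M1 form of muscle and brain and the allosterically regulated M2 form of proliferating and many epithelial cells. NM_011099, the M2 form, stood at 285, 281 and 260 FPKM, and NM_001253883, the M1 form, at 48.0, 48.6 and 56.6 FPKM. The M2 share was 85.6%, 85.3% and 82.1%, or 84.3% ± 1.90, and M2 led in all 3 libraries with bounds apart from those of M1.

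The 2 exons are shown because the forms differ by them, and the shares rest on the reads that tell them apart. Each is exon 9 of 11 in its transcript, lies in the coding sequence and is 167 bases long, or 6.87% of a transcript of 2432 bases. Both are on the plus strand of GRCm38, with the M2 exon at chr9:59675568-59675734 and the M1 exon at chr9:59675029-59675195, read from GENCODE M21 transcripts. Capitals mark the 64 positions at which the bases differ, and the other 103 positions (61.7%) are the same. The longest equal run is 12 bases.
M2 exon: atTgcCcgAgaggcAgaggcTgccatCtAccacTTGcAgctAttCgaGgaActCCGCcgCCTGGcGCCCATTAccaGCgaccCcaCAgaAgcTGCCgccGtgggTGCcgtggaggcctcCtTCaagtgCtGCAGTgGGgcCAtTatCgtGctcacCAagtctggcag
M1 exon: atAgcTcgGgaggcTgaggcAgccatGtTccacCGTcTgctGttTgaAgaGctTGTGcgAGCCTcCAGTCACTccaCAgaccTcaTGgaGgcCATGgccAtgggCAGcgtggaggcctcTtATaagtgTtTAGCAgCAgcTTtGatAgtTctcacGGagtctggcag

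Only fragments that touch these 167 bases or their junctions tell the forms apart. The pseudogene Gm6560 matches the M2 transcript over 1593 bases at 98.4% identity and covers all 167 bases of the M2 exon, while no such match covered the M1 exon. The placing of reads that fit both is not given in these sources, and the part of Gm6560 in the M2 share was not tested. Of 6 splicing factors known to act on this exon choice, 5 averaged 53.4 FPKM or more. Ptbp1, Hnrnpa1 and Hnrnpa2b1, which repress the M1 exon, averaged 79.3 ± 3.39, 102 ± 6.82 and 122 ± 5.12 FPKM. Srsf3, which favours the M2 exon, averaged 57.8 ± 2.09 FPKM and the Ptbp1 relative Ptbp3 averaged 53.4 ± 0.893 FPKM. Ptbp2, the neuronal relative, averaged 9.57 ± 0.778 FPKM.

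Pklr has a pair of start sites 481 bases apart, the upstream one for the R form of red blood cells and the downstream one for the L form of liver. NM_001099779, the L form, held 79.3%, 91.4% and 70.6% of Pklr in the 3 libraries (80.5% ± 10.4), and NM_013631, the R form, the rest. The L form led in every library, and its share moved more between libraries than that of Pkm M2. The bounds behind it are wide, since all of Pklr rested on about 353 fragments. Pklr shares 711 bases with the neighbouring Hcn3 (0.486 FPKM), which makes its level uncertain to a small degree. Liver markers stood at 281 to 303 FPKM summed and red blood cell markers at 68.2 to 74.9 FPKM beside these forms, with Hba-a2 at 56.4 FPKM, Hba-a1 at 15.4 FPKM, Alas2 at 0.348 FPKM and Hbb-bs at 0.0501 FPKM. Their part in the Pklr forms was not tested.

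The promoter bases of both starts are shown because the L form led and the rat L promoter is known for a glucose response element. They are RefSeq bases on GRCm38.p6, plus strand, chr3:89136373-89136571 for L, ending before the start of that transcript in GENCODE, and chr3:89135892-89136141 for R. Capitals mark the only match to the paired motifs CACGNG and CNCGTG with 5 bases between them, searched on both strands.
L promoter: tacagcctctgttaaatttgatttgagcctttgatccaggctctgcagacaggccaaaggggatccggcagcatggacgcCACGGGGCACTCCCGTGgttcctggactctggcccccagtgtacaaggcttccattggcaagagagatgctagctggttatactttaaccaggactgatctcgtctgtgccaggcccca
R promoter: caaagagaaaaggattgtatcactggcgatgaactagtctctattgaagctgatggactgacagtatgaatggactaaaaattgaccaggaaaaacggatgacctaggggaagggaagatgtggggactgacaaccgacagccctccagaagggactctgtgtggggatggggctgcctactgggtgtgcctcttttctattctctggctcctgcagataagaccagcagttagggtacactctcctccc

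The match begins 170 bases before the L start of the deposited file, and the 250 bases before the R start held none. These letters occurred in 15 of 32851 RefSeq promoters of 300 bases, or 0.0457%. Of 85 promoters of the 56 metabolic genes with a RefSeq entry, that of Pklr was the only one with a match. The pattern was set in advance for the Pklr promoters, so the match and its rarity describe the sequence and are no test. The factors that bind such elements in liver, Mlxipl and its partner Mlx, averaged 3.53 ± 0.320 and 59.3 ± 3.05 FPKM in this tissue.

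**Figure D3:**
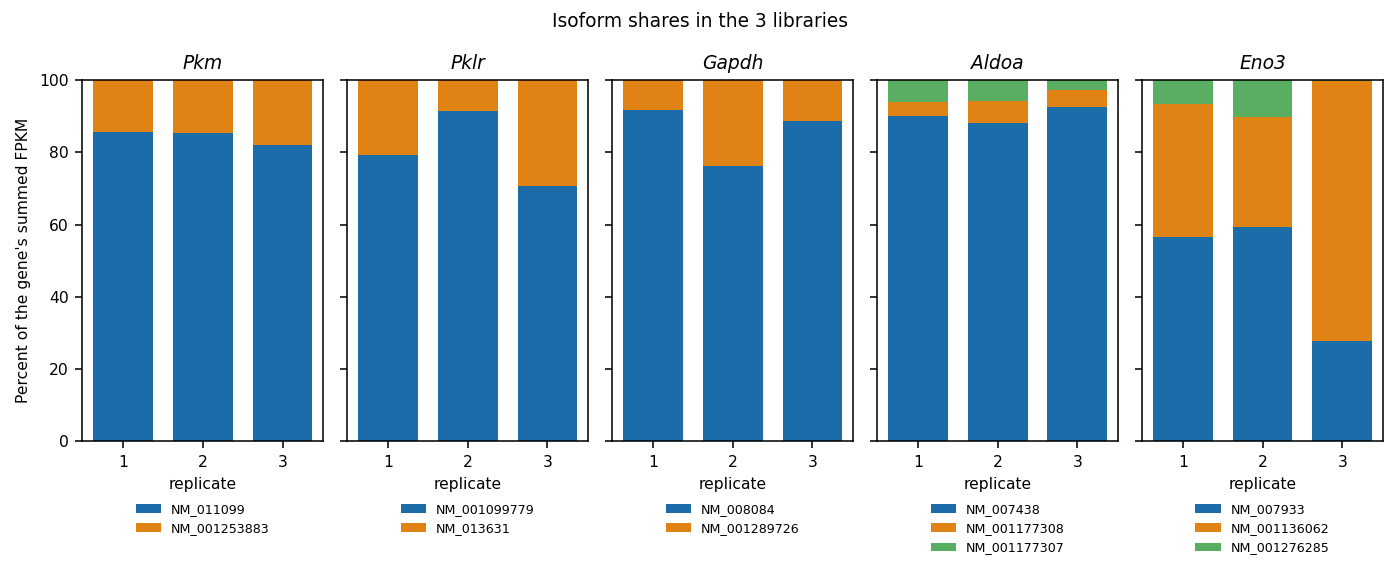
Percent of the summed FPKM of Pkm, Pklr, Gapdh, Aldoa and Eno3 held by each RefSeq isoform in each of the 3 libraries. The Pkm shares are alike in the libraries, the M2 form NM_011099 holding 82.1% to 85.6%, while the leading form of Eno3 changes in replicate 3.

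Among other genes with several isoforms, the leading form was steady in most. Of the 19 multi-isoform genes, 14 kept the same leading isoform in all 3 libraries. Aldoa was led by NM_007438 at 90.3% on average, Hk1 by NM_001146100 at 97.1% and Ldha by NM_010699 at 98.3%. Gapdh was led by NM_008084 at 91.7%, 76.3% and 88.7%, and Ogdh by NM_010956 at 74.0%, 49.4% and 64.6%. The next Ogdh form, NM_001252288, held 18.1%, 45.5% and 27.9%, close to the leader in replicate 2. The other Gapdh form, NM_001289726, stood at 60.1 FPKM (bounds 49.1 to 71.1) in replicate 1 and 178 FPKM (159 to 198) in replicate 2. Its bounds were thus apart between these libraries, and the source of the shift was not tested. Among the multi-isoform genes at 10 FPKM or more in mean, Eno3 alone had 2 isoforms that each held 20% or more in every library. Its form NM_007933 held 56.5%, 59.2% and 27.8%, and NM_001136062 held 36.9%, 30.7% and 72.1%. The order thus turned in replicate 3, the shallowest library. The bounds of NM_007933 were 40.9 to 55.8 FPKM in replicate 2 and 12.1 to 31.0 FPKM in replicate 3. Those of NM_001136062 were 19.1 to 31.0 FPKM and 42.1 to 69.6 FPKM. Both forms thus had bounds apart between these libraries, and the source of the turn was not tested. The other 4 genes without a steady leader were Pfkm, Hk3, Ldhb and Pfkfb3, all under 10 FPKM. The remaining 38 genes were listed with 1 isoform.

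Lactate dehydrogenase was Ldha in all but a small part. Ldha, which encodes the muscle-type subunit that favours lactate formation, stood at 575, 577 and 572 FPKM (chromosome 7, 46845804 to 46855627). Ldhb, which encodes the heart-type subunit, stood at 9.04, 7.66 and 11.9 FPKM. Ldha held 98.4% ± 0.368 of the pair and exceeded Ldhb by a ratio of 62.4 ± 13.6. The SD of Ldha was 0.460% of its mean, the smallest of the 57 genes, and that of Ldhb was 22.5% on about 79.3 fragments. Pseudogenes match 22.5% of the Ldha transcript (Gm5452) and 76.8% of the Ldhb transcript (Gm5514), which makes Ldhb the less certain of the pair.

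**Figure D4:**
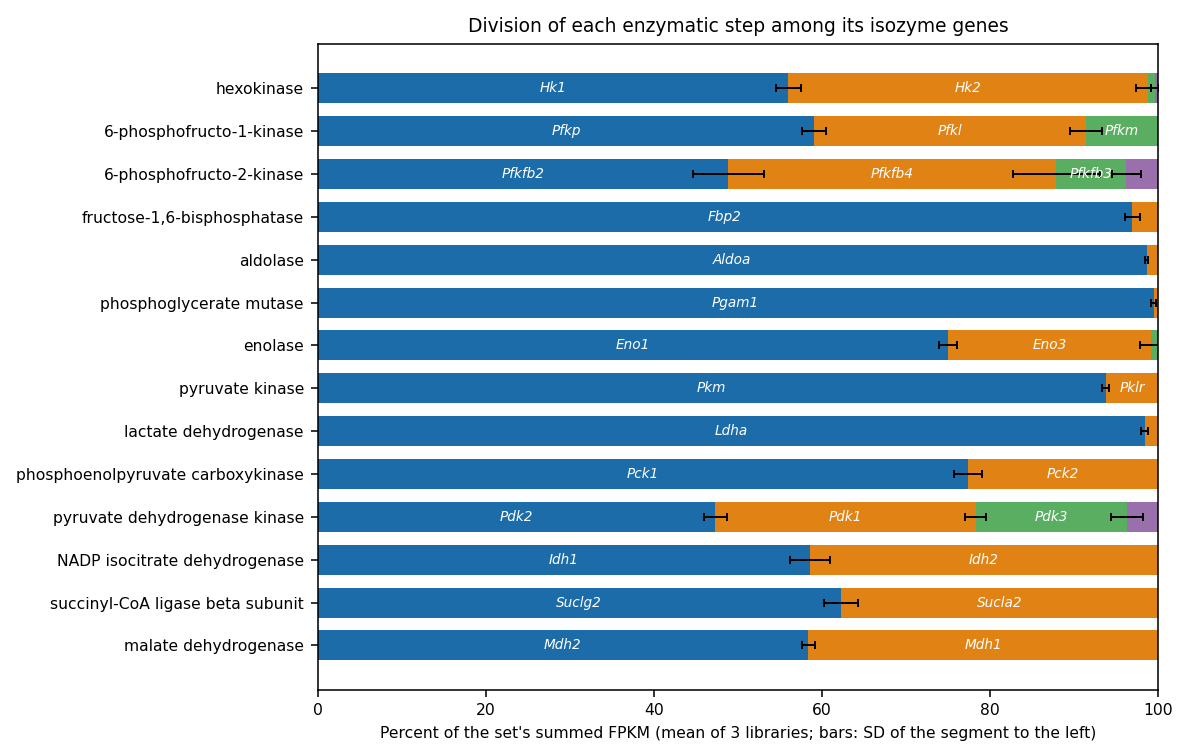
Percent of the summed FPKM of each of 14 isozyme sets held by each gene, as means of the 3 libraries, with bars for the SD of the segment to the left. Aldoa, Pgam1, Ldha, Fbp2 and Pkm fill 93.7% or more of their sets, while hexokinase, phosphofructokinase 1, pyruvate dehydrogenase kinase and malate dehydrogenase are divided.

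Across the plot of isozyme shares, 7 of 14 sets had a leading gene at 75% or more: Pgam1, Aldoa, Ldha, Fbp2, Pkm, Pck1 and Eno1. In the other 7 the leading gene held between 47.3% (Pdk2) and 62.2% (Suclg2). All 22 pairs of neighbours in these orders had the same order in every library, and in 17 of them the gene bounds were apart in every library. The 5 pairs that were not so resolved were Hk1 and Hk2, Hk3 and Hkdc1, Pfkfb2 and Pfkfb4, Pfkfb4 and Pfkfb3, and Pfkfb3 and Pfkfb1.

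The E1 enzyme of the pyruvate dehydrogenase complex had unequal subunit levels. Pdha1, the X-linked alpha subunit, stood at 112, 104 and 105 FPKM, and Pdhb, the beta subunit, at 50.2, 48.0 and 50.5 FPKM. The ratio was 2.16 ± 0.0811. Pdha1 overlaps Map3k15 (0.380 FPKM) over 15.0% of its transcript, and Pdhb has a pseudogene, Gm6123, over 71.3%, so part of the Pdhb signal is uncertain. Of the kinases that switch the complex off, Pdk2, the most widely expressed, stood at 25.6, 27.1 and 29.9 FPKM and Pdk1, a target of hypoxia signalling, at 17.9, 17.3 and 18.7 FPKM. Pdk3 stood at 9.21, 11.7 and 10.5 FPKM, and Pdk4, the kinase induced by fasting and fatty acids, at 2.57, 1.81 and 2.04 FPKM. Neighbours in this order had bounds apart in every library, and the shares were 47.3% ± 1.36, 31.0% ± 1.28, 18.004% ± 1.88 and 3.71% ± 0.827. The overlap of Pdk4 with Cflar covers 101 bases.

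The 12 TCA cycle genes, cytosolic Mdh1 included, averaged 40.3 to 232 FPKM, while the 20 of glycolysis ran from 0.240 to 740 FPKM. Cs, citrate synthase, which opens the cycle, was the highest at 237, 237 and 222 FPKM, and it rested on about 5503 fragments by its bounds. The 3 subunits of the NAD-dependent isocitrate dehydrogenase lay close together. Idh3a, the catalytic subunit, averaged 96.4 ± 13.1 FPKM, Idh3b 82.4 ± 3.95 FPKM and Idh3g 77.6 ± 6.36 FPKM. Idh3a over Idh3b was 1.18 ± 0.193 and not above 1 in replicate 2, so those levels differed by no more than their spread. Ogdh and Dlst, the E1 and E2 enzymes of 2-oxoglutarate dehydrogenase, averaged 52.5 ± 2.19 and 49.0 ± 4.70 FPKM, and their ratio of 1.08 ± 0.153 also crossed 1 in replicate 2.

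Succinyl-CoA ligase pairs a common alpha subunit with a beta subunit that uses GDP or ADP. Suclg1, the alpha subunit, stood at 140, 150 and 156 FPKM. The GDP-forming Suclg2 stood at 67.8, 62.7 and 68.8 FPKM and the ADP-forming Sucla2 at 37.7, 41.5 and 41.8 FPKM. Suclg2 thus held 62.2% ± 2.05 of the beta subunits, with bounds apart in every library, though a pseudogene, Gm15163, covers 38.7% of its transcript. Fh1, fumarase, averaged 65.2 ± 1.57 FPKM. Mdh2, the mitochondrial malate dehydrogenase that closes the cycle, stood at 194, 191 and 180 FPKM, and Mdh1, the cytosolic form of the malate-aspartate shuttle, at 137, 133 and 134 FPKM. Mdh2 over Mdh1 was 1.40 ± 0.0448. Within the cycle, Cs was 3.56 ± 0.191 times Fh1 and 4.43 ± 0.338 times Ogdh.

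NADPH is made by the NADP-dependent isocitrate dehydrogenases, by malic enzyme and by the oxidative pentose phosphate steps. Idh1, the cytosolic enzyme gene, stood at 55.2, 50.8 and 62.0 FPKM and the mitochondrial Idh2 at 41.8, 37.6 and 39.2 FPKM. Idh1 held 58.6% ± 2.38 of the pair, with bounds apart in every library. Me1, the cytosolic malic enzyme, averaged 4.58 ± 0.588 FPKM, and copies that cover up to 52.2% of its transcript make that level uncertain. The mitochondrial malic enzyme Me2, not among the 57, averaged 46.3 ± 0.470 FPKM, or 10.2 ± 1.42 times Me1. G6pdx, the X-linked glucose-6-phosphate dehydrogenase that commits glucose to the pentose phosphate pathway, stood at 19.0, 18.6 and 20.7 FPKM. Pgd, the next dehydrogenase, stood at 68.3, 69.7 and 64.8 FPKM, or 3.49 ± 0.314 times G6pdx. Tkt, transketolase, averaged 69.3 ± 3.13 FPKM and Taldo1, transaldolase, 110 ± 2.76 FPKM, a ratio of Taldo1 over Tkt of 1.59 ± 0.111. The first, committed step was therefore the lowest of the 4 genes in all 3 libraries. G6pdx overlaps Ikbkg (6.65 FPKM) over 5.13% of its transcript.

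By pathway, the 20 glycolytic genes summed to 2833 ± 27.1 FPKM and the 12 TCA cycle genes to 1233 ± 7.32 FPKM. The single genes ran the other way in the median, with 80.0 FPKM in the TCA cycle and 37.0 FPKM in glycolysis, where low isozymes stand beside the abundant ones. The 12 TCA cycle genes include the cytosolic Mdh1 (134 FPKM). They leave out succinate dehydrogenase, with Sdha at 107 FPKM, Sdhb at 146 FPKM, Sdhc at 169 FPKM and Sdhd at 170 FPKM. The sum and the median thus depend on which genes were picked. The 2 lactate dehydrogenases summed to 584 ± 0.559 FPKM, the 4 pentose phosphate genes to 267 ± 2.25 FPKM and the 6 pyruvate dehydrogenase genes to 215 ± 4.26 FPKM. The 6 gluconeogenic genes summed to 124 ± 10.4 FPKM, the 3 NADPH genes to 100.1 ± 6.08 FPKM and the 4 Pfkfb genes to 17.7 ± 1.56 FPKM.

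No metabolic gene that was tested was called as different between libraries. Of the 34 with 1 isoform and at least 1 FPKM, 0 were called by the chi-square test over all genes, and 1 had an unadjusted p under 0.05. This was Idh3a, at 96.4, 83.3 and 109 FPKM, with an unadjusted p of 0.000135 and a Benjamini-Hochberg adjusted p of 0.108 in the chi-square model over all genes. With multi-isoform genes included, 52 were tested and again none was called, against 0.119% of all 12629 genes, and Idh3a had an adjusted p of 0.0909. The SD over libraries was 4.88% of the mean in the median of the 57 genes and 15.8% in that of all symbols above 0. Among genes at 1 FPKM or more in every library these medians were 4.77% and 10.1%. In the plot of spread against depth, the genes of few fragments had the wide errors, Hk3 at 57.8%, Pgam2 at 49.7% and Fbp1 at 35.8%. Hkdc1, at 0.799% on about 7.0 fragments, was an exception. Among genes with 208 fragments (the number behind Pfkfb4) or more, the widest errors were those of Pfkfb4 (20.8%), Fbp2 (14.1%) and Idh3a (13.6%).

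**Figure D5:**
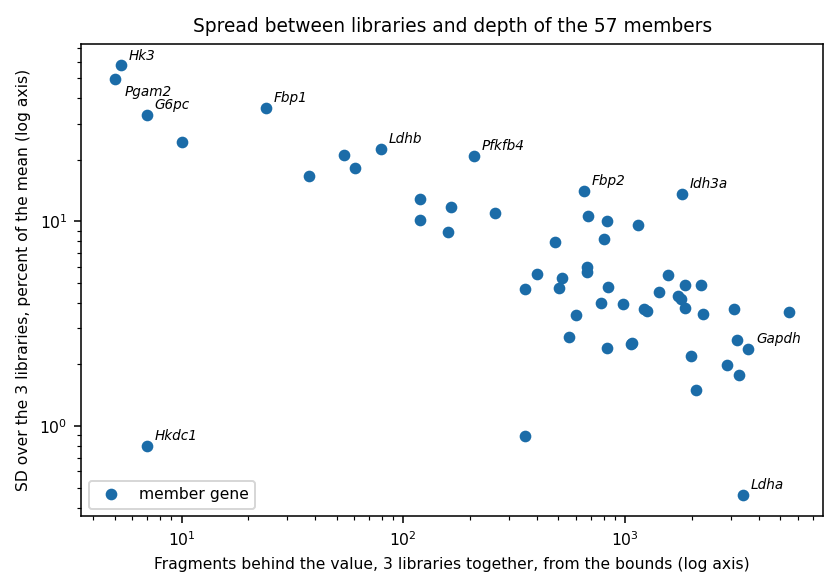
SD over the 3 libraries in percent of the mean against the fragments behind each of the 57 genes, both on log axes, with 1 point per gene. Errors shrink from 57.8% for Hk3, with about 5.31 fragments, to 0.460% for Ldha, with about 3394. The fragments are worked out from the bounds and may understate genes with several isoforms or copies.

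Genes of the same pathways outside the 57 were read from lists. Of 18 further genes of glycolysis and gluconeogenesis, 12 reached a mean of 1 FPKM and 8 a mean of 10 FPKM. Beside G6pc3 these included the phosphoglucomutases Pgm1 (29.1 FPKM) and Pgm2 (18.6 FPKM), the galactose mutarotase Galm (25.6 FPKM), the glycerol-phosphate dehydrogenase Gpd2 (13.7 FPKM), the glucose-6-phosphate carrier Slc37a4 (12.7 FPKM) and the bisphosphoglycerate mutase Bpgm (11.9 FPKM). The testis isozymes Pgk2, Gapdhs and Ldhc, and Eno4, were at 0 in every library. Their limits, the level that 3 fragments over the libraries together would give, were 0.255 FPKM for Pgk2, 0.283 FPKM for Gapdhs, 0.323 FPKM for Ldhc and 0.147 FPKM for Eno4, and cover counting error only. Of 8 further pentose phosphate genes, 6 reached 1 FPKM, with the lactonase Pgls at 43.4 FPKM, the isomerase Rpia at 16.7 FPKM and the epimerase Rpe at 14.7 FPKM. The transketolase-like genes Tktl1 and Tktl2 had values of 0 in every library, with 0.154 and 0.191 FPKM as their limits.

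Of 18 further genes of pyruvate dehydrogenase, the TCA cycle and citrate use, 14 reached 1 FPKM and 10 reached 10 FPKM. Succinate dehydrogenase stood at 107 FPKM for Sdha, 146 FPKM for Sdhb, 169 FPKM for Sdhc and 170 FPKM for Sdhd. The cytosolic aconitase Aco1 stood at 18.1 FPKM. The pyruvate dehydrogenase E2 gene Dlat stood at 22.0 FPKM, the shared E3 gene Dld at 55.2 FPKM and Acly, which turns citrate into cytosolic acetyl-CoA, at 82.3 FPKM, with Me2 as given above. The testis gene Pdha2 had a value of 0 in every library, for which the limit is 0.162 FPKM.

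Of 13 carriers of glucose, lactate and pyruvate, 9 reached 1 FPKM and 6 reached 10 FPKM. Slc2a1, the basal glucose transporter, averaged 48.4 FPKM and Slc5a1, the sodium-coupled one, 41.3 FPKM. Slc16a1, the monocarboxylate transporter for lactate and butyrate, averaged 99.0 FPKM, and its chaperone basigin (Bsg) 327 FPKM. The mitochondrial pyruvate carrier genes Mpc1 and Mpc2 averaged 125 and 82.7 FPKM. All 10 transcription factors listed for glucose metabolism reached 1 FPKM and 8 reached 10 FPKM. Beside Mlx these were Epas1 (36.1 FPKM) and Hif1a (30.8 FPKM) of the hypoxia response, Esrra (26.1 FPKM) and its coactivator Ppargc1a (11.3 FPKM), Mlxip (14.9 FPKM), Myc (14.2 FPKM) and Foxo1 (10.1 FPKM).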

How the data were processed

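Polyadenylated RNA of mouse distal colon was measured in 3 libraries of 1 group. FPKM values per isoform, with 95% confidence bounds, were deposited by the authors, per the file headers. The files also hold isoform lengths and a coverage signal, per the file headers, used only for the Pkm share and for lengths. The submitters' processing notes name Cufflinks 2.2.1, TopHat2 2.1.1 and Bowtie2 2.3.4.3. Neither strandedness nor the placing of multiply matching reads is given in these sources. The notes name GRCm39, but 97.9% of 23024 symbols start or end within 1000 bases of their RefSeq genes on GRCm38.p6, so positions are given as GRCm38.

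Isoform FPKM were summed per symbol with no pseudocount. Depth was recovered from the bounds, read as 2 standard errors. Bounds were deposited per isoform. For a gene with several isoforms they were computed from the summed isoform variances, which takes the isoforms as independent. The fragments behind a gene are its squared FPKM over the variance from these bounds. They equal a count only if the bounds hold counting error alone, so they may understate genes with several isoforms or copies. The spread test used the sampling variances from the bounds. It was tried on simulated counts of single-isoform genes that follow the noise model the test assumes. That trial used no bounds, so it cannot show how well the bounds measure the noise. The members and the gene lists were chosen with earlier results of these data known. By rule, all 57 genes are named, as are other listed genes at 10 FPKM or more, and isoform shares for genes with at least 2 isoforms of 20%. Some genes that the rule takes are left out of this text and not reported here. Copies were sought with BLAST+ 2.17.0 in GENCODE M21 transcripts. Calculations ran in Python 3.11.15 with SciPy 1.17.1, pandas 2.3.3 and numpy 2.4.6, and plots in matplotlib 3.10.9.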

Additional observations from a re-analysis of the deposited data

How the results depend on the processing

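No paired analysis was possible because the series has 1 group. The count of genes at 1 FPKM or more in every library was 52 and ran from 46 (at 5 FPKM) to 53 under thresholds of 0.5, 2 and 5 FPKM, the highest isoform, coding isoforms, a rescaling to TPM and leaving out each library. The median level of the 57 genes was 40.3 FPKM and moved to 39.5 FPKM with each gene's highest isoform used instead of its sum, to 51.0 FPKM over genes at 1 FPKM or more alone, and to between 39.7 and 41.6 FPKM with 1 library left out. The first 2 changes follow from what those settings leave out. The leading gene stayed first in all 14 isozyme sets under every setting except Pfkfb2, which held 42.1% with the highest isoform, behind Pfkfb4. The highest isoform of Pfkfb2 averaged 6.43 FPKM of its 8.59 FPKM, while Pfkfb4, with 1 isoform, kept its 6.94 FPKM. The Eno1 share was 82.6% under that setting, and 6 or 7 sets had a leading gene at 75% or more throughout. The Pkm M2 share ran from 83.7% to 85.4% with 1 library left out, and coverage gave the same 84.3%, as it must for transcripts of equal length. The test of spread called 7 genes, 15 with multi-isoform genes included (12629 tested), and 4 to 6 with 1 library left out. Of the 57 genes, 32 to 52 were tested in a setting, and 0 of those were called in any. Depth limits the genes under 1 FPKM, which rested on about 5 to 10 fragments, so their order is not resolved.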
